A study of Mus musculus with 12 samples.

Results

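The genes described here are 10 that adipocytes express for their hormones and for the storage and release of fat: Adipoq, Retn, Lep, Cfd, Fabp4, Cidec, Plin1, Lipe, Pck1 and Pparg. They were found in mouse lung arrays through the platform's annotation of probe sets, and for each gene the probe set with the highest mean over 12 arrays was used. Of the 10 genes, 8 had a named probe set, with 14 probe sets among them, and 7 passed the filter on low values that left 11602 genes for testing. Plin1, which encodes a coat protein of the lipid droplet, and Cfd, which encodes adipsin, had no probe set under their names in the annotation used and were not analysed here. Lep had a probe set but did not pass the filter.

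The study asked about simvastatin, an inhibitor of cholesterol synthesis, in mouse lungs injured by radiation. The 12 arrays fell into 4 labelled groups of 3, all from lungs of wild type mice. The control group received vehicle and was given an age of 8 to 10 weeks. The radiation group received 25 Gy once and was sampled 6 weeks later. The simvastatin group was labelled with 10 mg/kg of simvastatin, injected intraperitoneally 3 times a week for up to 6 weeks, in a treatment text that also speaks of irradiation. The combined group received both treatments. The 3 treated groups were given an age of 8 to 12 weeks, so age and treatment cannot be told apart in any comparison with control. The labels do not say that arrays came from separate animals, and p-values then measure only the spread between these samples.

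White adipocytes hold triglyceride in 1 large droplet, release fatty acids from it when the body fasts, and secrete hormones that act on other organs. The nuclear receptor PPARgamma, encoded by Pparg, acts with C/EBP factors to switch on most genes of the mature fat cell. Fat is not part of the lung's gas exchange surface, but it lies around the large airways, the heart and the mediastinum, next to where lungs are taken out, and lung alveolar macrophages also express Pparg and Fabp4.

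Several arrays stood apart before any test. Simvastatin 1, simvastatin 3 and combined 3 were near-identical, with an SD of log2 differences between 0.111 and 0.118 over 10342 probe sets, against 0.336 or more in the 63 other pairs of arrays. Simvastatin 1 and simvastatin 3 therefore entered the tests as 1 sample, which left n = 2 for simvastatin and n = 3 elsewhere. Cdkn1a, a p53 target that radiation induces, lay at 13.01 on control 3 and at 13.36 on simvastatin 2, close to the irradiated levels. It lay at 11.18 on combined 3, near the unirradiated ones. Read by title, these 3 arrays went against their labels. The treatment text of the simvastatin group also speaks of irradiation, so the label of simvastatin 2 is unclear. Cdkn1a lay at 11.09 and 11.11 on simvastatin 1 and 3. The Y-linked gene Eif2s3y was at 10.24 on control 3 and at 10.39 on radiation 1, and at 3.46 or less on the other arrays. Xist, expressed in female cells, was at 2.45 and 2.5 on those 2 arrays and at 12.29 or more on the others. By these genes control 3 and radiation 1 read as male and the other arrays as female, so sex was not balanced over the groups. The lung label was borne out by Sftpc, a surfactant gene of alveolar type 2 cells, which stayed between 15.57 and 15.84 on all 12 arrays. That is near the highest value measured, 16.27. The arrays were not equal in other lung genes. The mean level of 8 lung identity genes was 11.35 on control 1, against 12.2 to 12.51 on the other arrays. Alveolar type 2 genes were at 12.76 on control 1, against 13.21 to 13.93 on the others.

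The sequence before the start of 4 of these genes is shown because Adipoq, Retn and Pck1 had the widest ranges over the arrays and Lep had the narrowest. Each line gives the 250 bases before the start of the gene, from RefSeq on build GRCm38.p6, plus strand, 5′ to 3′. Capitals mark matches to TTNCNNAA, a short form of the C/EBP motif, on either strand.
Adipoq, chr16:23146286-23146535: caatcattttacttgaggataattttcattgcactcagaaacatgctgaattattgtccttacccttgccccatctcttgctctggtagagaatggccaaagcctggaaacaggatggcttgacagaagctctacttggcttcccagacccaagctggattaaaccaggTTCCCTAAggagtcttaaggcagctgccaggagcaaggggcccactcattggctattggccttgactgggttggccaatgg
Retn, chr8:3655520-3655769: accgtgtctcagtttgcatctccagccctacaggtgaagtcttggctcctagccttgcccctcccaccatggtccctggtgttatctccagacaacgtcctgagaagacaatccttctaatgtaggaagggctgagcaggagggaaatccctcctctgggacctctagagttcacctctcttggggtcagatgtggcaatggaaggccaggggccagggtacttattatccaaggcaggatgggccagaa
Pck1, chr2:173152823-173153072: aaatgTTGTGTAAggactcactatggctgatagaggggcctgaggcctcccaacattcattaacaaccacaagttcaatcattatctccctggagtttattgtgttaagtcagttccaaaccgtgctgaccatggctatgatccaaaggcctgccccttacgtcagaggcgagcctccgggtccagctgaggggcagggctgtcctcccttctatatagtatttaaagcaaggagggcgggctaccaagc
Lep, chr6:29059971-29060220: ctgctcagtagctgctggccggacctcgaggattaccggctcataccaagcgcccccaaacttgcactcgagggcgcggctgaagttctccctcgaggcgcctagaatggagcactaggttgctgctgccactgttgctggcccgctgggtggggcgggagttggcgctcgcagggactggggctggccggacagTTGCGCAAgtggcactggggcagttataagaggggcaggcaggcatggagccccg
The Adipoq window held 1 match, TTCCCTAA, beginning 81 bases before the start. The Lep window held TTGCGCAA, which reads the same on both strands, beginning 55 bases before the start. The Pck1 window held TTGTGTAA, which matches when read from the opposite strand, beginning 245 bases before the start, and the Retn window held none.

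The RefSeq table gave windows for 9 of the 10 genes, 13 windows in all, since some genes have several starts; Fabp4 was not matched. The TTNCNNAA motif was found in 7 of the 13 windows, against 36.8% of 32851 mouse windows of the same length. The nuclear receptor half-site AGGTCA was found on either strand in 2 of the 13, both of them windows of Pparg, against 14.0% of all windows. PPARgamma binds as a heterodimer to 2 copies of AGGTCA in the same direction with 1 base between, and that arrangement was found in 0 of the 13 windows and in 0.0335% of all. TATAAA was found in 1 of the 13, a Pparg window where it overlapped no other match, and in 12.4% of all. These are matches of letters in short windows and not binding sites.

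Levels are given as the deposited log2 intensities, on which 1 unit is a doubling. Adipoq (Entrez gene 11450, probe set 1422651_at) encodes adiponectin, a hormone that raises insulin sensitivity and is secreted almost solely by fat cells. Its level was 13.79, 7.19 and 12.12 on control 1 to 3, and 11.17, 10.22 and 10.9 on radiation 1 to 3. It was 11.79, 10.19 and 11.77 on simvastatin 1 to 3, and 13.52, 13.58 and 11.86 on combined 1 to 3. The highest and the lowest array were thus both controls, 6.6 log2 units or 96.7-fold apart, whereas the radiation arrays lay within 0.95 of each other. All 3 combined arrays lay above all 3 radiation arrays.

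Retn (Entrez gene 57264, probe set 1449182_at) encodes resistin, a hormone that in mice comes from fat cells and opposes insulin. Its level was 11.01, 4.25 and 8.82 on control 1 to 3, 8.6, 8.49 and 8.86 on radiation 1 to 3, 9.69, 7.16 and 9.55 on simvastatin 1 to 3, and 10.44, 11.02 and 9.69 on combined 1 to 3. The controls spanned more than all the other arrays together, and again the combined arrays lay above the radiation arrays with no overlap. The radiation group was the tightest, at 8.65 ± 0.19 (SD, n = 3), against 8.03 ± 3.45 (SD, n = 3) in control.

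Lep (Entrez gene 16846, probe set 1422582_at) encodes leptin, the hormone that reports the size of fat stores to the brain. Its probe set lay between 2.3 and 2.45 on all 12 arrays, which put its mean at the 23.3rd percentile of probe sets and below the filter. The probe set did not follow the other hormones: on control 1, where Adipoq and Retn were high, it read 2.33, and on control 2, where both were lowest, it read 2.32. These readings were too low to order the arrays, and no fold change is given.

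Fabp4 (Entrez gene 11770, probe set 1451263_a_at) encodes the fatty acid binding protein aP2, which carries fatty acids inside fat cells and is also made by macrophages and capillary endothelium. Its level was 15.1, 10.6 and 14.77 on control 1 to 3, 13.77, 13.98 and 13.61 on radiation 1 to 3, 14.05, 13.0 and 14.29 on simvastatin 1 to 3, and 15.25, 15.18 and 14.28 on combined 1 to 3. Control 2 was the lowest array by a wide margin, and the combined arrays again lay above the radiation arrays. The gene had 3 further probe sets. The probe set 1417023_a_at ran from 10.34 on control 2 to 15.34 on combined 1, much as the one used. The dimmer 1424155_at was at 9.15 on control 1, 7.7 on combined 1 and 7.45 on combined 2, and at 5.75 or less on the other 9 arrays. The dimmest, 1425809_at, passed 4 on control 1, combined 1 and combined 2 only.

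**Figure D1:**
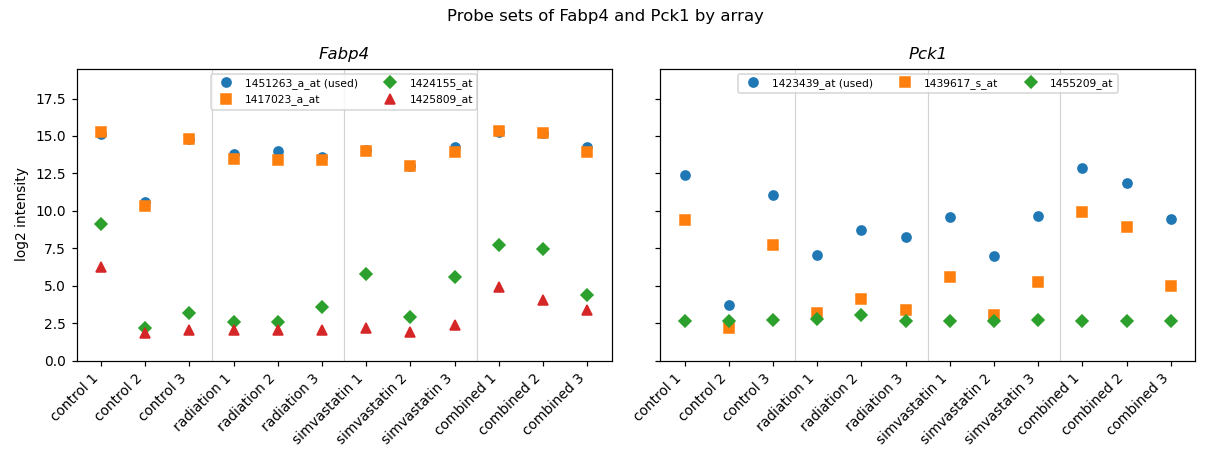
Log2 intensity of each named probe set of Fabp4 (left) and Pck1 (right) on the 12 arrays, with grey lines between groups. The probe set used for Fabp4 ran from 10.6 to 15.25 and the one used for Pck1 from 3.69 to 12.86, and the dimmer probe sets were highest on control 1, combined 1 and combined 2, except 1455209_at of Pck1, which stayed between 2.61 and 3.01.

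Cidec (Entrez gene 14311, probe set 1452260_at) encodes the protein Fsp27, which sits on lipid droplets and fuses small ones into large ones. Its level was 10.37, 5.83 and 9.68 on control 1 to 3, 8.85, 8.02 and 7.33 on radiation 1 to 3, 8.81, 6.32 and 8.83 on simvastatin 1 to 3, and 10.34, 10.56 and 9.07 on combined 1 to 3. The combined arrays lay above all radiation arrays, and control 2 was lowest, followed by simvastatin 2. Lipe (Entrez gene 16890, probe set 1422820_at) encodes hormone-sensitive lipase, which frees fatty acids from stored fat when catecholamines signal. Its level was 9.2, 7.41 and 8.97 on control 1 to 3, 8.92, 7.52 and 8.36 on radiation 1 to 3, 8.67, 8.43 and 8.39 on simvastatin 1 to 3, and 10.11, 9.93 and 8.76 on combined 1 to 3. The groups overlapped, because combined 3 lay under radiation 1. The second probe set of Lipe did not pass the filter.

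Pck1 (Entrez gene 18534, probe set 1423439_at) encodes cytosolic PEPCK, which fat cells use to make the glycerol backbone for triglyceride and which liver and kidney use to make glucose. It had the widest range of the 8 genes, 9.17 log2 units, but its lowest reading, 3.69 on control 2, lay under the filter level of 4.851, and no fold is given for it. Its level was 12.42, 3.69 and 11.04 on control 1 to 3, 7.02, 8.71 and 8.23 on radiation 1 to 3, 9.58, 6.97 and 9.62 on simvastatin 1 to 3, and 12.86, 11.89 and 9.48 on combined 1 to 3. Of its 3 probe sets, 1439617_s_at was also lowest on control 2, at 2.14, and highest on combined 1, at 9.91, whereas 1455209_at stayed between 2.61 and 3.01. Pparg (Entrez gene 19016, probe set 1420715_a_at), the regulator, moved less: 8.62, 6.86 and 8.5 on control 1 to 3, 8.09, 8.71 and 7.24 on radiation 1 to 3, 7.32, 7.13 and 7.42 on simvastatin 1 to 3, and 9.79, 9.1 and 7.61 on combined 1 to 3. Combined 1 and 2 were the highest arrays for Pparg, and combined 3 lay among the radiation arrays.

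**Figure D2:**
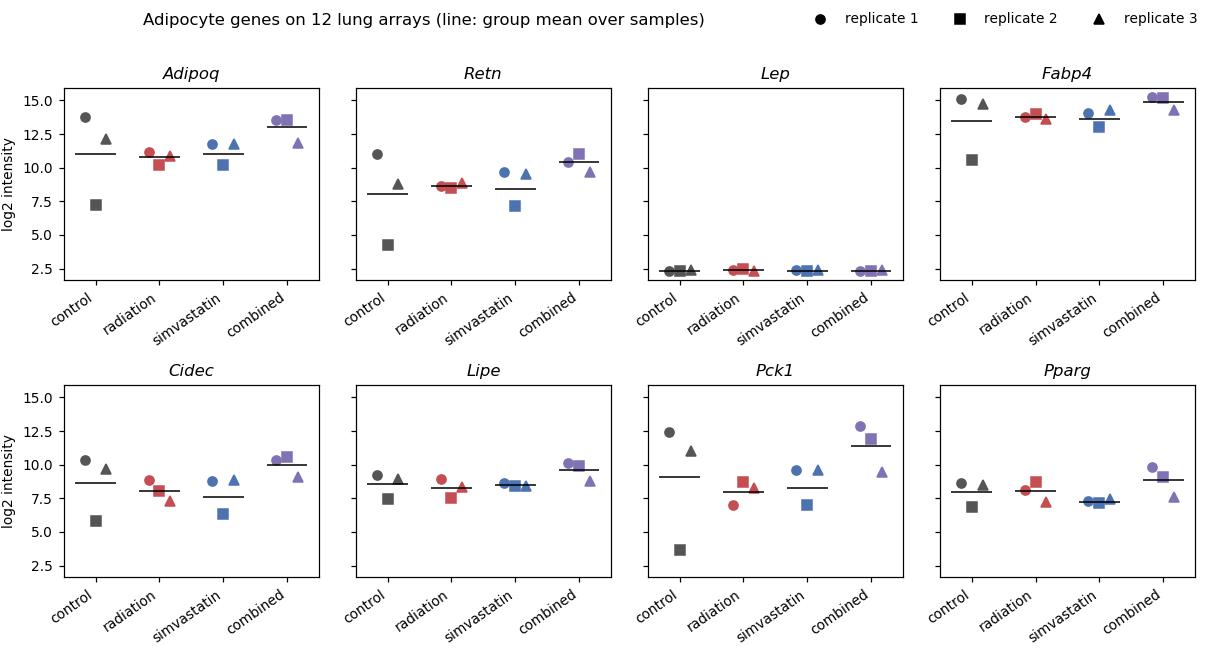
Log2 intensity (vertical axis) of the 8 measured genes on each array, by labelled group, with a line at the mean over samples (simvastatin 1 and 3 counted as 1). Control 2 is the lowest point for all genes but Lep, and Lep is flat between 2.3 and 2.45 on every array.

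These genes varied far more between arrays than most genes did. The range over 12 arrays was 6.6 for Adipoq, 6.77 for Retn, 4.65 for Fabp4, 4.74 for Cidec, 2.7 for Lipe, 9.17 for Pck1 and 2.93 for Pparg, against a median of 1.17 over all 11602 genes. Of all genes, 99.7% had a smaller range than Pck1, 99.1% a smaller range than Adipoq and 88.5% a smaller range than Lipe, the least variable of the 7. For 4 of the 7 the range shrank clearly without control 2, to 3.6 for Adipoq, 3.86 for Retn, 2.24 for Fabp4 and 5.89 for Pck1. For the other 3 it changed less, to 2.59 for Lipe, 2.66 for Pparg and 4.24 for Cidec.

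The 7 genes also ordered the arrays alike. Control 2 was the lowest array for 7 of 7, and control 1, combined 1 and combined 2 were among the highest 4 arrays for 7 of 7. The median deviation of the 7 genes from their own means was 1.7 on control 1, -3.39 on control 2 and 0.61 on control 3. It was -0.22, -0.58 and -0.61 on radiation 1 to 3, 0.14, -1.32 and 0.26 on simvastatin 1 to 3, and 1.67, 1.89 and 0.29 on combined 1 to 3. The high arrays thus came from 2 labelled groups, and the lowest array was a control. In whole tissue, fewer adipocytes and less RNA per adipocyte cannot be told apart.

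No comparison with control passed the test for any of the 7 genes. Differences are on the log2 scale, each ± its standard error (SE) from limma, with p-values adjusted by Benjamini and Hochberg over 11602 genes. In radiation minus control, Adipoq differed by -0.27 ± 1.38 (adjusted p = 0.955), Pck1 by -1.06 ± 1.96 (adjusted p = 0.87) and Retn by 0.62 ± 1.4 (adjusted p = 0.895). All 7 genes overlapped between these groups, as did most genes: 4.86% of all lay higher in every radiation sample and 2.03% lower. Of the 7, 3 lay above 0, against 60.4% of all genes, and their median was -0.26 against 0.08 over all genes. limma called 0.0% of the 11602 genes at an adjusted p under 0.05 here, and 600 had an unadjusted p under 0.05. For Adipoq, Pck1, Retn, Fabp4 and Cidec, control had by far the widest spread of the 4 groups or, for Cidec, the widest. For Lipe the SD was 0.97 in control and 0.73 in combined, and for Pparg 0.98 and 1.12. Without control 2 the difference was -2.19 for Adipoq, -3.74 for Pck1 and -1.26 for Retn, and without control 1 it was 1.11, 0.62 and 2.11, so its sign turned with which control was left out. The readings of Pck1 and Retn on control 2, 3.69 and 4.25, lay under the filter level. When limma weighted the arrays by their spread, control 2 received the highest weight, 3.54, and control 1 the lowest, 0.159. The difference then was 3.01 for Adipoq, 3.73 for Retn (adjusted p = 0.0345) and 2.73 for Fabp4 (adjusted p = 0.0348), and 1241 genes were called. Control 2, which dominated the control mean in that fit, was the array lowest in all 7 genes.

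Simvastatin minus control was alike in this. Adipoq differed by -0.05 ± 1.54, Pck1 by -0.77 ± 2.19, Cidec by -1.06 ± 1.25 and Pparg by -0.74 ± 0.71, all with limma's adjusted p at 0.99 or above. The median of the 7 genes was -0.05, and 2 of 7 lay above 0, against 49.6% of all genes. All 7 overlapped, where 3.36% of all genes lay higher in every simvastatin sample and 7.96% lower. Without control 2 the difference was -1.97 for Adipoq and -3.44 for Pck1, and without control 1 it was 1.33 and 0.92. limma called 0.0% of genes, and 214 had an unadjusted p under 0.05.

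The 7 genes were all higher in the combined group than in the radiation group, but none passed the test. Pck1 was higher by 3.42 ± 1.96, a 10.7-fold difference, from a mean of 7.99 ± 0.87 (SD, n = 3) to 11.41 ± 1.74 (SD, n = 3). Adipoq was higher by 2.23 ± 1.38, or 4.68-fold, from 10.76 ± 0.49 to 12.99 ± 0.97 (SD, n = 3 each). Cidec was higher by 1.92 ± 1.11, Retn by 1.74 ± 1.4, Lipe by 1.34 ± 0.54, Fabp4 by 1.12 ± 0.99 and Pparg by 0.82 ± 0.64. The Pparg difference was 0.34 without combined 1, 0.43 without radiation 3 and 1.43 without combined 3. The adjusted p from limma was 0.849 for Fabp4 and 0.835 for the other 6. Lipe alone had an unadjusted p under 0.05, at 0.0348 in limma, and across all genes 518 did, with 0.0% called after adjustment. With array weights limma called 1172 genes here and none of the 7, whose adjusted p-values began at 0.0533 for Pck1.

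limma's SE for a gene rests on 1 spread shared by all 4 groups. The wide controls, with an SD of 3.43 for Adipoq, thus also enter the SEs of combined minus radiation. For Adipoq, Retn, Fabp4, Cidec and Pck1, 5 of 7, every combined sample lay above every radiation sample. Across all 11602 genes 429 did so, which is 3.7%. The 5 genes ordered the arrays alike, so they are not 5 independent cases. The exact two-sided permutation test gave p = 0.1 for each of the 5, the smallest value that 3 against 3 samples allow, and 0.2 for Lipe and 0.4 for Pparg. The median difference of the 7 genes was 1.74, against -0.09 over all genes, of which 37.4% lay above 0. Without the near-identical arrays, and equally without the 3 arrays against their labels, the combined group kept combined 1 and combined 2. All 7 genes then lay above every radiation array, where 11.1% of all genes did.

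**Figure D3:**
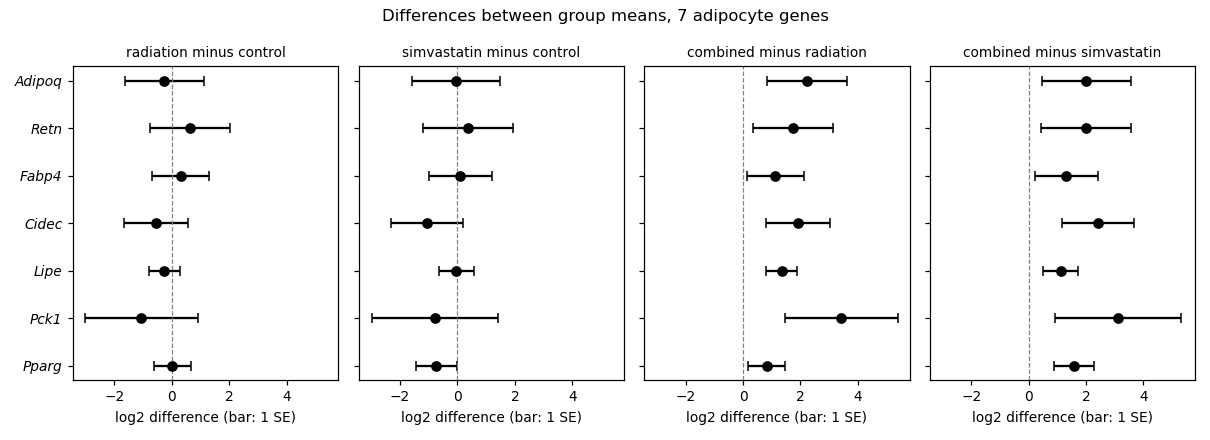
Difference between group means on the log2 scale for the 7 tested genes in 4 comparisons, with bars of 1 SE from limma and a dashed line at 0. Differences from control sit on both sides of 0, between -1.06 and 0.62, and those of the combined group sit above 0, between 0.82 and 3.42.

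Combined minus simvastatin shared the combined samples with that comparison, so it adds no independent view of them. All 7 genes were higher in the combined group, Pck1 by 3.12 ± 2.19, Cidec by 2.42 ± 1.25, Adipoq by 2.01 ± 1.54, Retn by 1.99 ± 1.56, Pparg by 1.58 ± 0.71, Fabp4 by 1.32 ± 1.1 and Lipe by 1.12 ± 0.61. limma's adjusted p was 1.0 for each, with 0.0% of genes called and 153 at an unadjusted p under 0.05. Of the 7, all but Pck1 were separated with no overlap once simvastatin 1 and 3 were averaged, against 7.76% of all genes in that direction. That separation rested on combined 3 lying above the average of 2 arrays near-identical to it. It therefore cannot be read as a difference between the groups. On single arrays, Fabp4 was at 14.29 on simvastatin 3 and 14.28 on combined 3, and Retn at 9.69 on simvastatin 1 and on combined 3. Adipoq was at 11.79 on simvastatin 1 and 11.86 on combined 3. The exact two-sided permutation p lay between 0.1 and 0.3, with 0.1 the smallest that 3 against 2 samples allow. These sizes rested in part on simvastatin 2: without it the median of the 7 went from 1.99 to 1.17, with 0.77 for Retn, 1.17 for Cidec, 1.21 for Adipoq, 1.81 for Pck1 and 0.73 for Fabp4, and without the near-identical arrays it was 3.37. Combined 3, which was near-identical to 2 simvastatin arrays, differed from them by at most 0.37 in any of these genes. Without those 3 arrays all 7 genes lay above the single simvastatin array left, as did 40.6% of all genes, and without the 3 arrays against their labels all 7 did, with 35.3% of all genes.

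The interaction of radiation and simvastatin, the difference between combined minus radiation and simvastatin minus control, was 4.19 ± 2.94 for Pck1, 2.98 ± 1.67 for Cidec and 2.28 ± 2.07 for Adipoq, and it lay above 0 for 7 of 7. limma gave adjusted p-values from 0.882 to 0.899 for the 7 genes and called 0.0% of all genes, with 377 at an unadjusted p under 0.05. The moderated F test of any difference among the 4 groups gave an adjusted p of 0.969 for each of the 7, with 0.0% called and 169 genes at an unadjusted p under 0.05. The median interaction of the 7 was 1.56, without control 2 it was 3.26, and with array weights it was 0.58.

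Other genes of fat metabolism were read from fixed lists, and limma called 0 members of any list in any of these comparisons. Of the lipid droplet and triglyceride synthesis genes, 9 of 10 were tested, and 9 of 9 were above 0 in combined minus radiation, with a median of 0.87. Plin4, a droplet coat protein, was at 10.02, 6.27 and 8.85 on control 1 to 3 and at 10.4, 10.19 and 8.82 on combined 1 to 3. Plin4 was chosen after its values were seen. Its low control 2 and high combined 1 and 2 therefore add no independent view of the adipocyte genes. Gpam, Bscl2 and Lpin1, the 3 of the list with the highest means, differed by 0.02 ± 0.24, 0.18 ± 0.21 and 0.1 ± 0.26. Gpam starts glycerolipid synthesis in many tissues, and its range over the arrays was 0.88.

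Of the lipogenesis genes, which build fatty acids from glucose carbon, 8 of 9 were above 0 in combined minus radiation, with a median of 0.66. Scd1, Scd2 and Acly led the list by level and differed by 0.1 ± 0.24, -0.4 ± 0.14 and 0.37 ± 0.29. Of the lipolysis genes 5 of 8 were tested and 4 of 5 were above 0, with a median of 0.47. Pnpla2, the lipase that takes the first fatty acid from triglyceride, differed by 0.8 ± 0.45. Mgll, which takes the last, differed by 0.27 ± 0.2, and G0s2, which inhibits Pnpla2, by 0.47 ± 0.21.

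Genes of fatty acid and glucose uptake were centred near 0, with a median of 0.03 in combined minus radiation and 4 of 7 above 0. The 3 with the highest means, Cd36, Lpl and Gpihbp1, are also made by lung endothelium, macrophages or alveolar cells. They differed by -0.11 ± 0.22, 0.18 ± 0.38 and -0.01 ± 0.43. Slc27a1 and Slc2a4, of lower level and chosen after their values were seen, differed by 1.5 ± 0.45 and 1.38 ± 0.76. limma's adjusted p was 0.835 for both. The rest of the list lay between -0.29 and 0.18. The adipocyte transcription factors other than Pparg had a median of 0.0, with 4 of 8 above 0. Cebpb, Cebpd and Cebpa, the C/EBP factors of fat cell development, differed by 0.23 ± 0.37, -0.01 ± 0.46 and 0.01 ± 0.24. Of the other adipocyte genes 8 of 12 were above 0, with a median of 0.42. Car3, a carbonic anhydrase abundant in fat, differed by 1.03 ± 0.46, the natriuretic peptide clearance receptor gene Npr3 by -1.34 ± 0.49 and the lipoprotein lipase inhibitor gene Angptl4 by 0.1 ± 0.39.

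The receptors of these hormones were measured as well. Adipor1 and Adipor2 encode the adiponectin receptors, Cdh13 encodes T-cadherin, which binds adiponectin on vessels, and Lepr encodes the leptin receptor. In combined minus radiation, Adipor1 differed by -0.08 ± 0.2, Adipor2 by 0.46 ± 0.26, Cdh13 by -0.17 ± 0.49 and Lepr by -0.84 ± 0.43. The median was -0.12 and 1 of 4 lay above 0. Adiponectin RNA ranged over 6.6 log2 units between arrays. The receptor genes ranged over 0.85 for Adipor1, 1.21 for Adipor2, 1.83 for Cdh13 and 1.7 for Lepr.

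The genes nearest to Adipoq were found by centring each gene on its mean over 12 arrays and averaging the absolute log2 difference from Adipoq. Retn was the nearest of the 11601 other genes, at 0.41, and Cidec and Fabp4 followed at 0.51 and 0.52, against a median of 1.35 for all genes. Pck1 came 25th at 0.81, Lipe 32nd at 0.82 and Pparg 117th at 0.99. Outside the set, the nearest were Ephx2 at 0.53, Plin4 and Acvr1c at 0.55, Adig and Pdk4 at 0.56, Amy1 and Esr1 at 0.61, Smoc1 at 0.64, Tmem45b at 0.66 and Ptger3 at 0.67. Ephx2 encodes soluble epoxide hydrolase, Pdk4 encodes a kinase that shuts down pyruvate dehydrogenase in fasting, and Adig encodes adipogenin. Leaving the members themselves out, the gene nearest to each of the other 6 was Tmem45b for Pck1 and Smoc1 for Retn, both at 0.57, Pdk4 for Fabp4 at 0.34, Prkar2b for Lipe at 0.3, Clybl for Pparg at 0.21 and Plin4 for Cidec at 0.28. The measure covers all 12 arrays, and control 2 enters it for every gene.

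Markers of brown fat and of other tissues moved with these genes on some arrays. Ucp1, the uncoupling protein that defines brown fat, was at 12.89 on control 1, 12.28 on control 3, 12.58 on combined 1, 10.49 on combined 2 and 8.74 on radiation 2, and at 2.32 or less on the other 7 arrays. The mean level of the 11 tested brown fat genes of 14 listed ran from 5.73 to 9.44 in control, 6.4 to 7.93 in radiation, 5.93 to 6.66 in simvastatin and 6.53 to 10.0 in combined. Their median in combined minus radiation was 1.31, and 9 of 11 were above 0. The leading genes by level were Fabp3, Cox8b and Cox7a1, which muscle also expresses, and they differed by 0.59 ± 0.67, 1.31 ± 1.01 and 0.92 ± 0.83. Ucp1, chosen after its values were seen, differed by 4.02 ± 3.35 in combined minus radiation. Adipoq was at 13.79 on control 1, 12.12 on control 3, 13.52 on combined 1 and 13.58 on combined 2. These arrays were the highest both for Adipoq and for Ucp1. On radiation 2 Adipoq was at 10.22. On the simvastatin arrays and combined 3, Ucp1 was at most 2.32 while Adipoq lay between 10.19 and 11.86. The part of brown fat in the Adipoq and Pck1 differences was not tested.

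Skeletal muscle genes (10 tested of 12 listed) had mean levels of 9.76 to 11.35 in control, 4.05 to 11.17 in radiation, 3.81 to 4.3 in simvastatin and 4.23 to 12.26 in combined. Squamous epithelium genes (9 of 12), as found in the oesophagus, had 5.22 to 10.9, 3.54 to 8.26, 3.42 to 3.66 and 3.73 to 11.09 in the same order. Their medians in combined minus radiation were 1.19 and 2.53, with 10 of 10 and 9 of 9 above 0. On control 2, where Adipoq was lowest, the muscle actin gene Acta1 was at 14.26 and the keratin gene Krt4 at 15.18. On control 1, where Adipoq was highest, Acta1 was at 14.35 and Krt4 at 15.19. T cell and thymocyte genes (6 of 12) had mean levels of 5.2 to 12.14 in control, where control 1 was highest, 5.15 to 5.9 in radiation, 5.23 to 6.35 in simvastatin and 5.11 to 8.39 in combined. The part of these tissues in the differences above was not tested.

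Alveolar macrophages make Fabp4 and Pparg as well. Their marker genes (9 tested of 10 listed) had mean levels of 8.58 to 9.79 in control, 8.45 to 9.41 in radiation, 8.83 to 8.98 in simvastatin and 8.95 to 9.19 in combined. The median in combined minus radiation was -0.39, with 2 of 9 above 0. Chil3, Mrc1 and Abcg1, the 3 with the highest means, differed by -0.5 ± 0.47, -0.39 ± 0.26 and -0.55 ± 0.21. Marco, a scavenger receptor gene of these cells and chosen after its values were seen, differed by 3.53 ± 1.15 (limma's adjusted p = 0.835). On control 2 the median deviation of the list was 0.6. The part of macrophages in the Fabp4 and Pparg differences was not tested. Endothelial genes differed by a median of -0.06 in combined minus radiation and alveolar type 2 genes by -0.26.

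**Figure D4:**
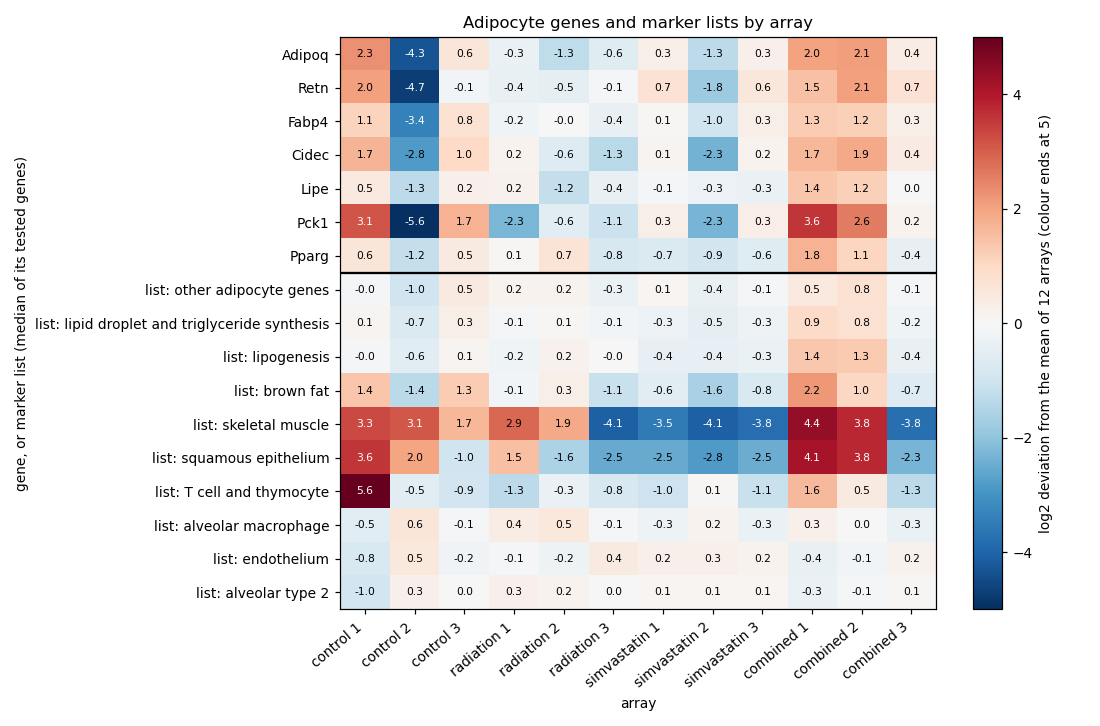
Log2 deviation from the mean of 12 arrays for the 7 tested genes (above the line) and the median deviation of marker lists (below it), with 1 column for each array and a colour scale that ends at 5 in both directions. Control 2 is low in all 7 genes, down to -5.6 for Pck1, while its muscle and squamous lists are high, and control 1, combined 1 and combined 2 are high in both.

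**Figure D5:**
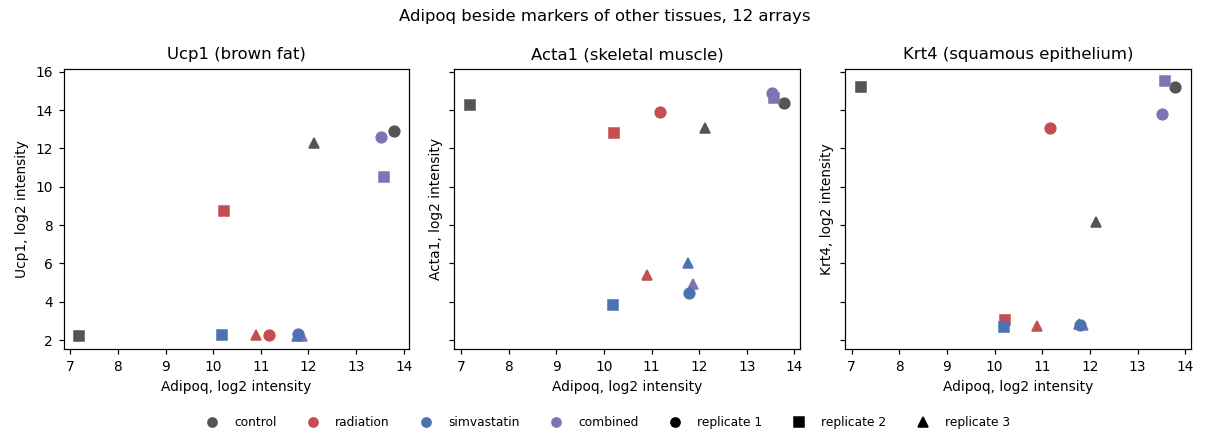
Adipoq (horizontal axis) beside Ucp1, Acta1 and Krt4 (vertical axes), all as log2 intensity, with 1 point for each of 12 arrays, coloured by group and shaped by replicate. Ucp1 was above 8 on 5 arrays and at 2.32 or less on 7, and control 2, with Adipoq at 7.19, had Acta1 at 14.26 and Krt4 at 15.18.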

How the data were processed

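Lung RNA was extracted with Trizol and hybridised as biotin-labelled cRNA to 12 Affymetrix arrays, per the labels' protocols. The authors deposited log2 intensities, and the submitters' processing notes name MAS5 and GCRMA, whose versions, settings and order the sources used here do not give. Both methods bear on low probe sets, whose log2 differences should be read with care. Values ran from 0.817 to 16.27, array medians from 4.418 to 5.123, and no further scaling was applied. The 3 arrays in each group limit the precision.

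The table had 45101 probe sets, 64 of them Affymetrix controls. By the platform annotation 34945 had 1 symbol and were used, 932 had several and 9211 had none. A probe set was kept above log2 4.851, the median of all values, on at least 3 arrays, which left 20073 probe sets and 11602 genes, each by its highest mean. All samples were grouped by title.

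Group means were fitted over 11 samples in R 4.3.3 with limma 3.58.1 (lmFit, eBayes with trend), with simvastatin 1 and 3 averaged as the design allowed, and p-values were adjusted by Benjamini and Hochberg with a threshold of 0.05. The fit was tested on simulated data with the same independent noise in every group. That differs from Adipoq, with an SD of 3.43 in control and 0.49 in radiation. The simulation thus checks the code and not how the fit behaves on these genes. Exact two-sided permutation tests on means were run for the 8 measured genes. Genes named apart from the 10 members were the 10 nearest to Adipoq and the nearest to each other member. The 3 members of each list with the highest means were named as well. Plin4, Slc27a1, Slc2a4, Sftpc, Ucp1, Acta1, Krt4, Cdh13, Marco and the array checks were chosen after their values were seen. The members and gene lists were chosen with earlier results of these data known. Alternatives were other scalings, filters and probe set rules, array weights, a replicate block, and arrays left out.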

Additional observations from a re-analysis of the deposited data

How the results depend on the processing

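The higher levels of the 7 genes in the combined group kept their direction and stayed short of the threshold under all 23 alternatives in combined minus radiation and in combined minus simvastatin, with limma's lowest adjusted p at 0.0533 and 0.635. Their sizes did move: leaving out 1 array took the median of combined minus simvastatin to between 1.17 and 2.34, and the median of all probe sets gave 2.48 for Fabp4 and 0.69 for Lipe in combined minus radiation, where median centring gave 0.46 for Pparg. The 2 comparisons with control did not keep their direction. Leaving out each array in turn moved radiation minus control from -2.19 to 1.11 for Adipoq, -3.74 to 0.62 for Pck1, -1.26 to 2.11 for Retn, -1.15 to 1.1 for Fabp4, -0.82 to 0.11 for Lipe, -0.55 to 0.41 for Pparg and -1.96 to 0.32 for Cidec. It moved simvastatin minus control from -1.97 to 1.33, -3.44 to 0.92, -1.52 to 1.86, -1.35 to 0.9 and -0.61 to 0.29 for the first 5 of these and -2.46 to 0.19 for Cidec, and their median from -1.52 without control 2 to 0.9 without control 1. With 1 array left out the median interaction ran from 1.05 to 3.26, and with array weights it was 0.58. Leaving out 1 array moved the genes called from 0 to 1 (without control 3) in radiation minus control, the interaction and the F test. Array weights gave 1241 genes in radiation minus control and 1172 in combined minus radiation, medians of 2.73 and 2.5 in the comparisons of radiation and simvastatin with control, and in the first of these 3.01 for Adipoq, 3.12 for Pck1, 0.80 for Lipe and 2.13 for Cidec. In the other they gave 3.16 for Adipoq, 3.70 for Pck1, 0.88 for Lipe, 0.20 for Pparg and 1.27 for Cidec. Without the 3 arrays against their labels, 9 genes were called in radiation minus control and 2 in the F test, Adipoq turned to 0.27 in radiation minus control, and in simvastatin minus control Adipoq was 1.29, Pck1 1.54, Lipe 0.22 and Cidec 0.72. Without the arrays with Y-linked signal, which was chosen after the data were seen, 1 gene was called in radiation minus control, Adipoq was 0.07 and Pck1 0.41 there, and Adipoq 0.49, Pck1 0.23 and Lipe 0.17 in simvastatin minus control. Without the near-identical arrays, also chosen after the data were seen, Retn was -0.86 and Fabp4 -0.49 in simvastatin minus control. The median of all probe sets gave -0.95 for Fabp4 and 0.38 for Lipe in radiation minus control, and -0.23 and 0.17 in simvastatin minus control. Median centring gave 0.00 for Adipoq and 0.01 for Lipe in radiation minus control, where all genes then had a median of 0.36 (-0.45 in combined minus radiation), and quantile normalization gave 0.03 for Adipoq in simvastatin minus control. The cause of these turns was not tested.

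Same-numbered arrays of different groups did not all deviate together, since 8 of 18 pairs had a correlation over 0.1, in a range of -0.26 to 0.41. The same-numbered pairs of control and combined had 0.32, 0.29 and 0.41, against -0.52 to 0.3 in their differently numbered pairs. The labels give no pairing, and the numbers were not taken to pair the arrays. The fit with the replicate block on 12 arrays called 0 genes, with 922 at an unadjusted p under 0.05 in radiation minus control and 773 in combined minus radiation, and gave 0.22 for Adipoq in simvastatin minus control, as did the 12 arrays without a block.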

Other observations

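The C/EBP gene Cebpd was higher in radiation than in control by 1.64 ± 0.46 and Klf15, a glucocorticoid-induced factor of fat and liver, by 1.7 ± 0.41. The adjusted p from limma was 0.751 for both, and they were picked after their values were seen. Both were also higher in simvastatin than in control, by 1.6 ± 0.51 and 1.07 ± 0.46. In combined minus radiation they differed by -0.01 ± 0.46 and -0.17 ± 0.41. Control 1 was their lowest array, at 10.03 and 8.38. Csn2, which encodes the milk protein beta-casein, was at 7.16 on control 1 and between 1.93 and 2.04 on the other 11 arrays, while Wap, another milk protein gene, was at 2.18 or less on all 12.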
